A study of Mus musculus with 6 samples.

Results

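The Ly6 and uPAR family consists of small proteins that share a disulphide-bonded fold with finger-like loops, and most of its members are held on the outer cell surface by a GPI lipid anchor. Several are used to name leukocytes. Ly6g is the standard surface marker of mouse neutrophils, and the Ly6C antigen, encoded by Ly6c1 and Ly6c2, marks inflammatory monocytes and some endothelial cells. Others belong to epithelia. Lypd8 is released by colon enterocytes into the lumen, where it binds flagellated bacteria and holds them off the mucosa, and Ly6a (Sca-1) appears in colon epithelium that regenerates after injury. The question was which of these genes followed leukocytes and which followed epithelium from one colon to the next, and whether treatment with *B. vulgatus* changed them.

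The genes followed were Ly6g, Ly6a, Ly6c1, Ly6c2, Ly6d, Ly6e, Lypd8 and Plaur, 8 of the 18477 genes in the deposited table. They were picked by gene symbol, with earlier results of these data known. All 8 passed the filter on low counts, which left 14579 genes. Male C57BL/6 mice, 6 to 8 weeks old at purchase, drank water with 2% (w/v) dextran sulfate sodium (DSS), which damages the epithelial lining, from day 8 to day 14. The DSS group (n = 3) received PBS by gavage for 14 days, and the DSS+BV group (n = 3) received the gut bacterium *Bacteroides vulgatus* in PBS over the same 14 days. Both groups had DSS, so neither is a healthy colon, and colon tissue was sequenced, 1 library from each mouse. The labels do not give the segment of colon that was taken.

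Levels are CPM, the expected count relative to a library total scaled by TMM, and the values of a group are listed in the order of replicates 1, 2 and 3. Library totals lay between 15293276 and 17254343 expected counts. In tissue of mixed cells, fewer cells of a type and less RNA from each cell cannot be told apart. The libraries fell into 2 clusters that cut across treatment, DSS 1, DSS 3 and DSS+BV 1 against DSS 2, DSS+BV 2 and DSS+BV 3, so relations across the 6 libraries are given as descriptions without a test. Colon epithelium was present throughout, with the epithelial adhesion gene Epcam between 1264 and 1749 CPM and the main goblet cell mucin, Muc2, between 2339 and 20700.3 CPM. The libraries also differed in several genes of the distal colon. The posterior homeobox gene Hoxb13 was at 211, 36.4 and 125 CPM in the DSS mice and 248, 112 and 0 CPM in the DSS+BV mice, and the distal proton pump gene Atp12a had 7.46 CPM in DSS 2, 3.48 CPM in DSS+BV 3 and 535 to 696 CPM in the other 4 libraries. Neutrophil genes separated the groups: S100a8, a calprotectin subunit of neutrophils, averaged 38.6 ± 7.98 CPM with DSS alone against 1.80 ± 0.313 CPM with *B. vulgatus* (SD, n = 3 each; adjusted p = 0.0127, edgeR).

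Of the 8 genes, 6 lie in the Ly6 gene cluster of mouse chromosome 15 (GRCm38.p6), between 74762056 at Ly6d and 75159128 at Ly6g. This stretch of 397.1 kb holds 12 genes of the deposited table, 9 of which passed the filter. Lypd8 lies on chromosome 11 (58379032 to 58390541) and Plaur on chromosome 7 (24460937 to 24475970). Ly6c1 and Ly6c2 are closely related copies. Of the 50-base windows in their annotated transcripts, 32.8% in Ly6c1 and 14.4% in Ly6c2 were also found, letter for letter, in another gene, mostly in the other Ly6c copy. The share was 19.0% in Ly6a, for the most part with Ly6c1, 0.448% in Ly6g and 0 in Ly6d, Ly6e, Lypd8 and Plaur. Expected counts of Ly6c1 and Ly6c2 were fractional in all 6 libraries, as RSEM gives when a read is divided between genes, so the split between these 2 genes is uncertain. Those of Ly6a were fractional in 2 of 6 libraries, and its split from Ly6c1 was not tested.

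RefSeq promoter windows (GRCm38.p6, 250 bases before to 50 after a start) were matched for 5 of the 8 genes. The windows of Ly6g, Ly6c1 and Ly6c2 are shown because Ly6g and Ly6c1 had the same order of levels over the libraries and Ly6c2 did not, although all 3 windows are related in sequence. The strand shown is that of the gene, and capitals mark matches on either strand to a CDX motif (TTTATNG) of intestinal homeobox factors or to an ETS motif (GAGGAAG) of the kind PU.1 binds in myeloid cells. Each window ends inside the annotated gene and holds that gene's annotated upstream end (75048920 for Ly6c1). The windows of Ly6g and Ly6c2 also hold the other start of the same gene that has a RefSeq window.
Ly6g, start 2, chr15:75155079-75155378, plus strand: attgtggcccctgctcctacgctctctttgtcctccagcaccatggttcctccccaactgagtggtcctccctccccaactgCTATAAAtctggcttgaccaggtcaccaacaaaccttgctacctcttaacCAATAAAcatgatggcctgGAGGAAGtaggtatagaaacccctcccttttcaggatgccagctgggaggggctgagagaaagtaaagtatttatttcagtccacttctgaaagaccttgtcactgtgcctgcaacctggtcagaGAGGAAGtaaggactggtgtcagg
Ly6c1, start 1, chr15:75048788-75049087, minus strand: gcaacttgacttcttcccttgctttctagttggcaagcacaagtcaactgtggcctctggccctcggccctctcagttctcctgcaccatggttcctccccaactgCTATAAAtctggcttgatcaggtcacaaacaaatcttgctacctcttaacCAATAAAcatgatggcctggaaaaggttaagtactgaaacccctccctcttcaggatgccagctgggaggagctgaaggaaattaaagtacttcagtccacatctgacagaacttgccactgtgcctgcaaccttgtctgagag
Ly6c2, start 1, chr15:75111922-75112221, minus strand: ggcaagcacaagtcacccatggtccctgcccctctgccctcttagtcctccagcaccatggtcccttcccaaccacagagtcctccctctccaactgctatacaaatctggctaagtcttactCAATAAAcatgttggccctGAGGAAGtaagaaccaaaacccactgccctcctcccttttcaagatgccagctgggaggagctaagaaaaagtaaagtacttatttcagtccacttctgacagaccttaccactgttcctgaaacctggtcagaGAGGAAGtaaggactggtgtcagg

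In local alignments, the Ly6c1 and Ly6g windows were 87.6% identical over 251 bases, the Ly6c2 and Ly6g windows 85.7% identical over 272 bases, and the Ly6c1 and Ly6c2 windows 78.2% identical over 266 bases. The CDX letters occurred 2 times in Ly6g, 2 times in Ly6c1 and 1 time in Ly6c2. The first match in Ly6g and in Ly6c1 overlaps the letters of a TATA box (TATAAA), which the Ly6c2 window does not hold. The ETS letters occurred 2 times in Ly6g, 0 times in Ly6c1 and 2 times in Ly6c2. The Ly6c1 window stops within the letters of an ETS match, which the RefSeq window of its other start (start 2) holds whole, so the 0 depends on where the window ends. Of 32851 RefSeq windows of this length, 10.9% held at least 1 CDX match and 0.88% held 2 or more, against 13.6% and 1.31% for the ETS motif and 13.6% with a TATA box. An AP-1 motif (TGANTCA, in 7.81% of windows), a STAT motif (TTCNNNGAA, in 8.3%) and a C/EBP motif (TTGCNNAA, in 10.8%) had no match in these 3 windows. The window of the other Ly6g start (start 1) held 1 C/EBP match and 1 ETS match, so the Ly6g counts also depend on the start chosen. These are matches of letters only.

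*B. vulgatus* treatment gave no called change in any of the 8 genes. With edgeR's quasi-likelihood test (an adjusted p below 0.05 with a log2 fold change beyond 1 either way), 0 of 8 were called, where 0.0892% of all tested genes were. DESeq2 called 0 of 8 against 2.01% of the genes it adjusted, and 0 of 8 had an unadjusted edgeR p-value under 0.05, which 9.12% of tested genes had with a lower level and 3.4% with a higher one. All 8 log2 fold changes (DSS+BV against DSS) were below 0, with a median of -0.56, but the 8 genes are not independent and the levels of the groups overlapped in each. The DSS+BV libraries lay below all DSS libraries in 11.3% of tested genes and above them in 6.37%. The median over all tested genes was -0.01. DSS 3 was the highest library for 7 of the 8 genes, and without it the log2 fold changes of Ly6c2, Lypd8 and Plaur were 0.48, 0.21 and 0.46.

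**Figure D1:**
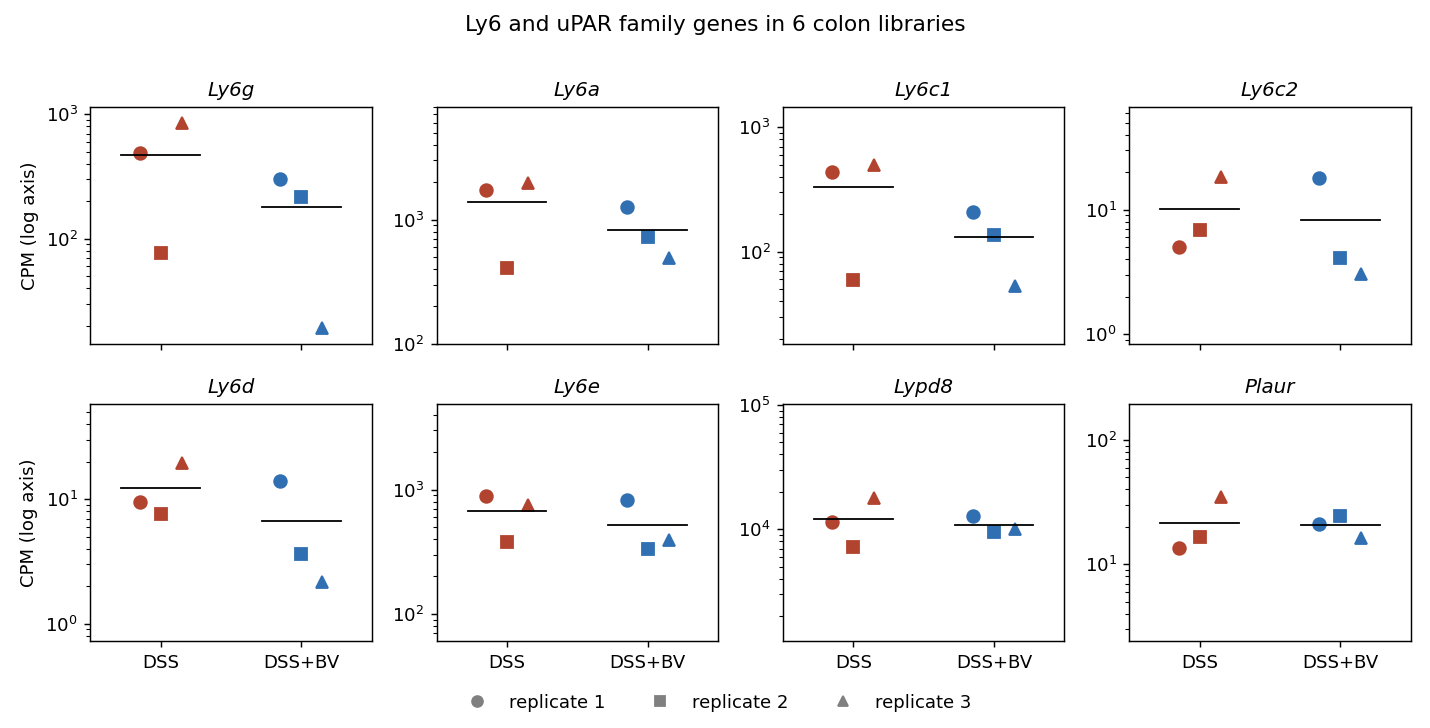
Level of each of the 8 genes in CPM on a log axis, with 1 point for each mouse, a shape for each replicate number and a line at the group mean. The range of every DSS+BV group overlaps that of the DSS group, and the DSS 3 triangle is the highest point in all panels but that of Ly6e.

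Ly6g (Entrez gene 546644) varied most. It was at 485, 76.1 and 854 CPM in the DSS mice and 303, 215 and 19.1 CPM in the DSS+BV mice, a 44.8-fold range. Its low libraries were DSS 2 and DSS+BV 3, 1 from each group. Both were also low in the distal colon list as a sum. This sum was 984, 94.9 and 928 CPM in the DSS mice and 1124, 916.5 and 26.8 CPM in the DSS+BV mice. Atp12a made the largest part of it in the other libraries. Hoxb13, Hoxd12, Hoxd13, Atp12a, Scnn1g and Insl5 were lowest in DSS 2 and DSS+BV 3. Hoxa13 was highest in DSS 2 (21.0 CPM) and lowest in DSS+BV 3 (0.19 CPM). Hoxd11 was lowest in DSS 2 (0.249 CPM) but not in DSS+BV 3 (5.31 CPM), and Scnn1b was lowest in neither (9.51 and 14.4 CPM). All listed distal genes are named here because of their values. The group means of Ly6g were 472 ± 389 and 179 ± 145 CPM (SD, n = 3 each), and the log2 fold change came to -1.40 (standard error, SE, 1.09; adjusted p = 0.625, edgeR). The summed level of the 16 tested genes on the neutrophil list was 250.2, 183 and 313 CPM in the DSS mice and 62.0, 27.1 and 21.2 CPM in the DSS+BV mice. Ly6g and the neutrophil genes parted between the groups: DSS 2 had a higher neutrophil sum than any DSS+BV library, but less Ly6g than DSS+BV 1 and DSS+BV 2.

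The levels of Ly6g lay closest to those of the distal colon list. Over the 6 libraries, Pearson's r of log2 CPM was 0.957 with the mean of the 9 distal genes, 0.829 with the macrophage and monocyte list, 0.625 with the neutrophil list and -0.557 with the pan epithelium list. For deviations from the group means, which take out the difference between treatments, r was 0.981 with the distal list and 0.891 with the neutrophil list. By rank, the order changed: Spearman's rho was 0.943 with the macrophage and monocyte list, 0.829 with the neutrophil list and 0.771 with the distal list. Among 11933 genes with a mean of at least 5 CPM, those most like Ly6g were Slc45a3 (r = 0.9842), the tyrosine kinase gene Syk (0.9835) and Insl5 (0.9826), a hormone of colonic L cells that is itself on the distal list. Insl5 was at 103, 18.1 and 127 CPM in the DSS mice and 84.6, 49.5 and 2.53 CPM in the DSS+BV mice. Leaving out DSS 2 and DSS+BV 3 gave Ly6g a fitted change of -1.36 on the log2 scale with a smaller standard error, 0.37 (adjusted p = 0.386, edgeR). This setting was chosen after the data were seen and leaves 2 mice in each group.

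Ly6c1 (Entrez gene 17067) encodes the Ly6C antigen that is best known from blood vessels. It was at 441, 58.6 and 498 CPM in the DSS mice and 206, 136 and 52.9 CPM in the DSS+BV mice, a 9.41-fold range. The order of the libraries was that of Ly6g in every place, with an r of 0.938 between the 2 genes. Its log2 fold change was -1.34 (SE 0.81, adjusted p = 0.536, edgeR), and it was -1.44 (SE 0.27, adjusted p = 0.324, edgeR) without the 2 libraries low in distal genes. Ly6c1 was closest to the distal colon list (r = 0.877) and the macrophage and monocyte list (r = 0.847), with 0.617 for the neutrophil list and 0.65 for blood endothelium. This order was not fixed: for deviations from the group means, r was 0.926 with the neutrophil list and 0.886 with the distal list, and by rank rho was 0.943 with the macrophage and monocyte list, 0.829 with the neutrophil list and 0.771 with the distal list. The most similar genes were the guanine deaminase gene Gda (r = 0.9973), Snrpb2 (0.9924) and Pyy (0.9921), the peptide YY hormone of L cells. With Ly6c1 and Ly6c2 summed before the test, the log2 fold change was -1.29 (SE 0.79, adjusted p = 0.540, edgeR).

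Ly6a (Entrez gene 110454), or Sca-1, is a marker of blood stem cells and of regenerating epithelium and is induced by interferon. It was at 1740.1, 407 and 1971 CPM in the DSS mice and 1250.3, 719 and 492 CPM in the DSS+BV mice. As for Ly6g and Ly6c1, DSS 1 and DSS 3 were highest, DSS+BV 1 followed and DSS 2 and DSS+BV 3 were lowest. The log2 fold change was -0.74 (SE 0.61, adjusted p = 0.643, edgeR). Ly6a was more like Ly6c1 (r = 0.984) than like any of the 14 marker lists, of which the B and plasma cell list (0.871), the macrophage and monocyte list (0.849) and the distal colon list (0.838) came nearest. Ly6a and Ly6c1 share sequence, and the part of the division of reads in this likeness was not tested. The neutrophil list had an r of 0.542 with Ly6a for the values and of 0.95, the highest of the 14 lists, for deviations from the group means. Its r was 0.461 with the regenerating epithelium list and 0.631 with the interferon list. The genes most like it were the transcription factor gene Osr1 (r = 0.9946), Snrpb2 (0.9924) and Wdtc1 (0.9913).

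**Figure D2:**
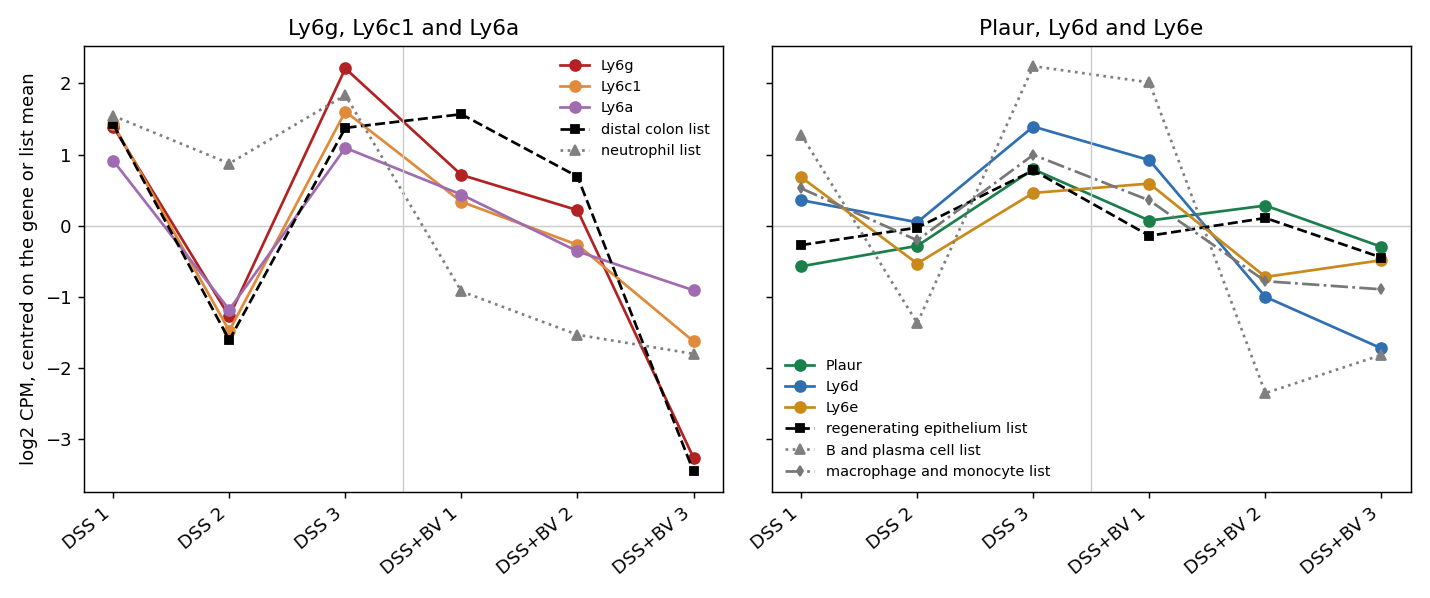
Level of 6 of the genes in each library, as log2 CPM less the gene's mean over the 6 libraries, with the mean of marker lists on the same scale. On the left, Ly6g, Ly6c1 and Ly6a dip with the distal colon list in DSS 2 and DSS+BV 3, while the neutrophil list stays high in DSS 2; on the right, Plaur runs with the regenerating epithelium list and Ly6d with the macrophage and monocyte list.

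Ly6c2 (Entrez gene 100041546), the Ly6C gene of monocytes and memory T cells, had another pattern. It was at 4.97, 6.90 and 18.3 CPM in the DSS mice and 17.8, 4.08 and 3.03 CPM in the DSS+BV mice. DSS 3 and DSS+BV 1 stood above the other 4 libraries, so each group had 1 high mouse. The log2 fold change was -0.28 (SE 0.79, adjusted p = 0.906, edgeR), and it was above 0 without DSS 3, without DSS+BV 2 or without DSS+BV 3. Its levels were closest to the T cell list (r = 0.908) and to Ly6d (r = 0.906), with 0.547 for its neighbour Ly6c1 and 0.438 for the neutrophil list. By rank, rho with the T cell list was 0.657, and for deviations from the group means the fibroblast list (0.95) and blood endothelium (0.918) were above the T cell list (0.911). The genes most like Ly6c2 were Osbpl8 (r = 0.9913), the tyrosine kinase gene Fer (0.9901) and Dock11 (0.9862), an exchange factor of lymphocytes.

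Ly6d (Entrez gene 17068) marks keratinocytes of squamous epithelium and early B lymphocyte progenitors. It was at 9.52, 7.65 and 19.6 CPM in the DSS mice and 14.1, 3.63 and 2.15 CPM in the DSS+BV mice. DSS 3 and DSS+BV 1 were again highest, and DSS+BV 2 and DSS+BV 3 were lowest. The log2 fold change was -0.89 (SE 0.73, adjusted p = 0.645, edgeR), and -2.08 (SE 0.54, adjusted p = 0.220, edgeR) without DSS+BV 1. Ly6d was closest to the macrophage and monocyte list (r = 0.952) and to the squamous list (0.946), and for deviations from the group means to the squamous list (0.963) and the fibroblast list (0.953). With the B and plasma cell list, r was 0.893. By rank, these lists were not told apart: rho was 0.943 each with the macrophage and monocyte, the squamous and the B and plasma cell lists. The squamous list rests on 3 of 12 genes that passed the filter, and the highest of these, the keratin gene Krt10, was between 0.828 and 2.21 CPM. The nearest genes were Fyb (r = 0.9969), an adaptor of T cells and myeloid cells, the myosin gene Myo5a (0.9932) and Plek (0.9929), a protein kinase C substrate of platelets and leukocytes. Fyb was at 40.1, 33.3 and 61.3 CPM in the DSS mice and 52.0, 22.0 and 17.7 CPM in the DSS+BV mice. Lysozyme 2 (Lyz2), the gene with the highest mean CPM on the macrophage and monocyte list, was between 241 CPM in DSS+BV 3 and 824 CPM in DSS 3.

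Ly6e (Entrez gene 17069) is expressed in many tissues, is induced by interferon and restricts the entry of some viruses. It was at 882, 380.4 and 757 CPM in the DSS mice and 829, 334 and 393 CPM in the DSS+BV mice. The 6 values fell into a high and a low set, and these were the 2 clusters of the libraries, with DSS 1, DSS 3 and DSS+BV 1 high. The log2 fold change was -0.38 (SE 0.44, adjusted p = 0.750, edgeR). Its r was 0.963 with the B and plasma cell list, 0.67 with the interferon list and -0.933 with the surface colonocyte list, the most negative of these values for the 8 genes with any list. By rank, rho was 0.714 with the B and plasma cell list and 0.829 with the T cell list. For deviations from the group means, r with the neutrophil list was 0.888, against 0.554 for the values. The genes most like Ly6e were Slc38a11 (r = 0.9974), Ciita (0.9906), the master regulator of MHC class II genes, and Chst3 (0.9905). Ciita was at 46.3, 13.0 and 49.1 CPM in the DSS mice and 47.4, 10.8 and 13.5 CPM in the DSS+BV mice.

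Lypd8 (Entrez gene 70163), the secreted enterocyte protein, took up to 1.77% of all expected counts of a library, the most of the 8 genes. It was at 11546, 7231 and 17772 CPM in the DSS mice and 12881, 9595 and 10090.4 CPM in the DSS+BV mice, a 2.46-fold range. DSS 2 and DSS 3 were the extremes, and the DSS+BV libraries lay between them. The log2 fold change was -0.17 (SE 0.37, adjusted p = 0.875, edgeR). The epithelial lists differed in their relation to it: r was -0.419 with pan epithelium, -0.466 with surface colonocytes and -0.11 with goblet cells. By contrast, r was 0.719 with the squamous list, which rests on 3 genes at low counts, and 0.576 with regenerating epithelium. By rank, rho with regenerating epithelium was only 0.143. Pearson's r was 0.860 with T cells and 0.826 with the interferon list, and with the neutrophil list it was 0.331 for the values and 0.883 for deviations from the group means. Keratin 8 (Krt8), highest in mean CPM on the pan epithelium list, was at 3290.0, 3336 and 3472 CPM in the DSS mice and 5449, 6249 and 4012 CPM in the DSS+BV mice. Genes with a pattern like that of Lypd8 included the endothelial receptor gene Acvrl1 (r = 0.9856) and Rnf121 (0.9851).

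Plaur (Entrez gene 18793) encodes uPAR, the receptor that gathers the protease urokinase on the cell surface of migrating leukocytes and of epithelium at wound edges. It was at 13.5, 16.5 and 34.9 CPM in the DSS mice and 21.1, 24.5 and 16.3 CPM in the DSS+BV mice. DSS 3 was high, and the other 5 libraries lay within 13.5 to 24.5 CPM. The log2 fold change was -0.07 (SE 0.38, adjusted p = 0.955, edgeR). Across the libraries, r was 0.889 with the regenerating epithelium list, 0.091 with the neutrophil list, 0.333 with the macrophage and monocyte list and 0.069 with Ly6e. For deviations from the group means, r was 0.996 with the regenerating epithelium list, 0.769 with blood endothelium, where it had been 0.377, and 0.511 with the neutrophil list. The regenerating list is a mean of genes that differed in direction. Of its 9 tested genes, 6 had a log2 fold change below 0 and 3 above 0. Annexin A1 (Anxa1), highest in mean CPM on this list, was at 366, 205 and 417 CPM in the DSS mice and 367, 255 and 106 CPM in the DSS+BV mice. Its level was thus high in DSS 1, the lowest library for Plaur. The genes nearest to Plaur were Phldb2 (r = 0.9902), which anchors microtubules at the cell base, the poliovirus receptor gene Pvr (0.9862) and B3gnt2 (0.9788).

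Per kilobase of the median coding transcript, the mean level over the 6 libraries was 9965 CPM per kb for Lypd8, 1272 for Ly6a, 608 for Ly6e, 509.4 for Ly6g and 296 for Ly6c1, followed by 14.4 for Ly6c2, 14.02 for Plaur and 12.7 for Ly6d. On this scale Lypd8 was highest and Ly6a next in all 6 libraries, whereas the ranges of Ly6e, Ly6g and Ly6c1 overlapped, as did those of Ly6c2, Plaur and Ly6d. In DSS+BV 3, for instance, Ly6g was at 29.9 CPM per kb, below Ly6c1 at 67.5, and in DSS 3 it was at 1338, above Ly6e at 772.

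The likeness to leukocyte and epithelial lists did not divide the 8 genes into a leukocyte and an epithelial set. All 8 had a positive r with each of the 4 leukocyte lists, and 7 of 8, all but Plaur, had a negative r with pan epithelium and with surface colonocytes. With the other epithelial lists the sign was different. All 8 had a positive r with the squamous list (0.325 to 0.946) and with regenerating epithelium (0.177 to 0.889, though rho for Ly6e was -0.371), and 6 of 8 had a negative r with goblet cells. The squamous list rests on 3 genes at low counts, which summed to between 1.58 and 4.95 CPM in a library. The leukocyte lists shared libraries with each other, since DSS 3 was the highest library for the neutrophil, the macrophage and the B cell lists. The level of each gene was also set against a list within each library, as log2 CPM less the list mean. Against the neutrophil list, the 7 genes other than Ly6g were higher in all DSS+BV libraries than in all DSS libraries, with differences from 1.64 for Ly6d to 2.88 for Plaur (exact permutation p = 0.1 each, two-sided, the smallest that 3 against 3 allows; 0.229 after Benjamini-Hochberg adjustment over 16 comparisons). The same held for 96.4% of all tested genes, and 0.0617% were lower throughout, so the count says little about the 7 genes. For Ly6g the difference was 1.28 and the groups overlapped (exact permutation p = 0.4). Against the pan epithelium list, 0 of 8 genes were separated, where 41.3% of tested genes were lower and 0.377% higher in every DSS+BV library. The differences lay between -2.03 for Ly6g and -0.44 for Plaur (exact permutation p between 0.2 and 0.6).

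**Figure D3:**
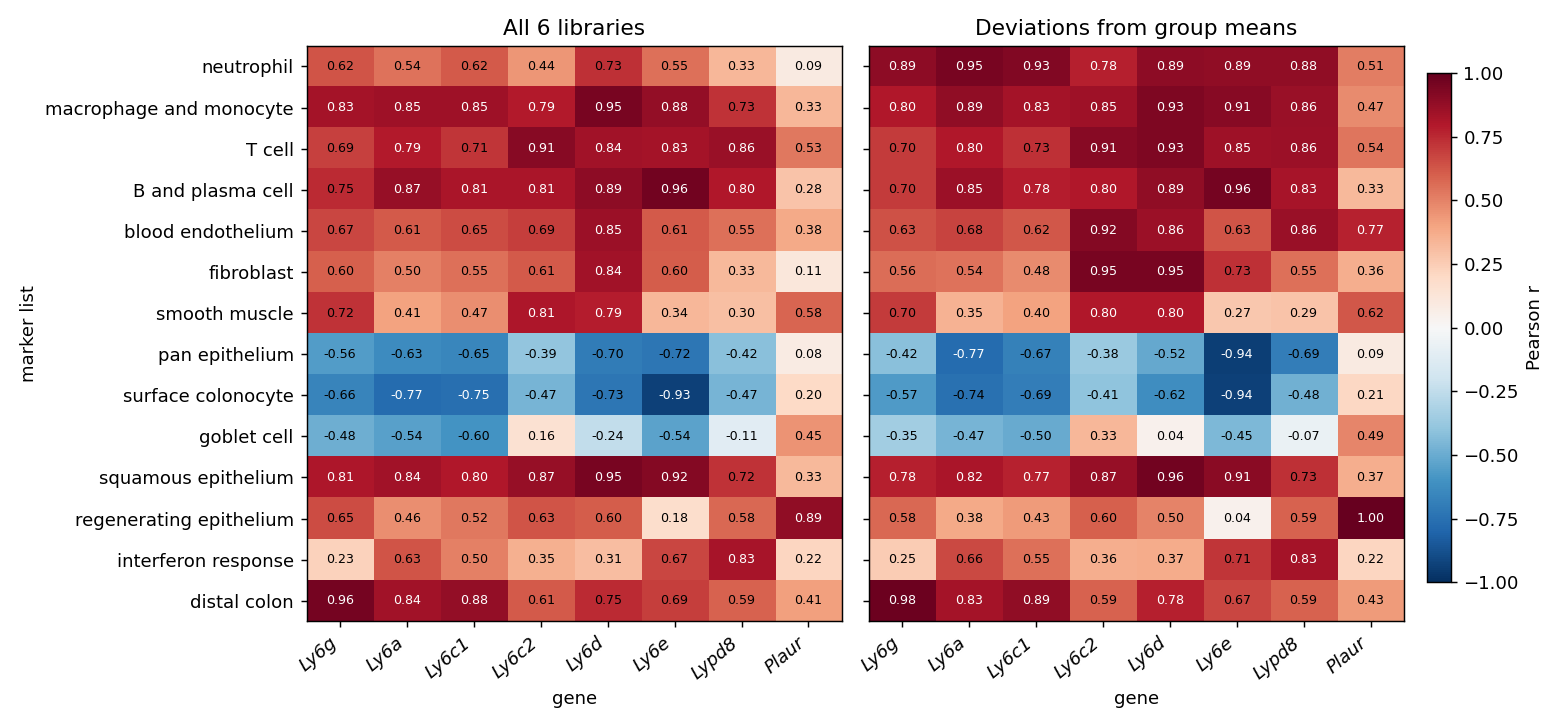
Pearson's r of log2 CPM over 6 libraries between each gene (columns) and the mean of each marker list (rows), for the values on the left and for deviations from the group means on the right, with blue below 0 and red above 0. Ly6g is nearest to the distal colon list (0.957), Ly6e runs opposite to surface colonocytes (-0.933), and Plaur has its highest value with regenerating epithelium (0.889) and at most 0.585 with the other lists on the left, while the neutrophil row is higher on the right for all 8 genes.

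The rest of the family was followed with a list of 41 further genes, of which 32 were in the table and 13 passed the filter. Of these 13, 10 had a log2 fold change below 0, the median was -0.55 and edgeR called 0. An unadjusted edgeR p-value under 0.05 was found for 6, all lower in the DSS+BV group, against 9.12% of all tested genes. DESeq2 called 2 of the 13, against 2.01% of all genes. In 5 of the 13, every DSS+BV library lay below every DSS library, against 11.3% of all tested genes. Ly6m, in the cluster on chromosome 15, was at 239.6, 89.2 and 756 CPM in the DSS mice and 74.5, 147 and 58.9 CPM in the DSS+BV mice, and its log2 fold change was -1.95 (SE 0.77, adjusted p = 0.388, edgeR). Ly6g2 was at 41.6, 31.1 and 61.9 CPM against 23.1, 17.8 and 17.9 CPM (log2 fold change -1.20, adjusted p = 0.243 by edgeR and 0.0125 by DESeq2). The complement inhibitor gene Cd59a was at 17.7 ± 4.93 CPM against 8.88 ± 0.738 CPM (SD, n = 3 each), with an adjusted p of 0.283 by edgeR. The nicotinic receptor modulator gene Lynx1 was at 28.5 ± 5.27 against 19.4 ± 1.94 CPM (adjusted p = 0.352, edgeR). Cd177, another surface protein of neutrophils, was at 98.9, 308 and 74.1 CPM in the DSS mice and 282, 99.4 and 183 CPM in the DSS+BV mice (log2 fold change 0.23, adjusted p = 0.899, edgeR). Like Ly6g, Cd177 did not have the order of the neutrophil list, but its high libraries were others, DSS 2 and DSS+BV 1.

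Gml and Gml2, neighbours of Ly6m in the cluster, had between 0 and 3 expected counts in each DSS+BV library. Gml shares 18.7% of its 50-base windows with Gml2, and both are named here because of their values. Gml had expected counts of 71, 29.75 and 166 in DSS 1, 2 and 3 and of 2, 3 and 2 in DSS+BV 1, 2 and 3, a ratio after scaling to library size of 0.0281 with a 95% exact interval from 0.0112 to 0.0586 that covers counting error only. The adjusted p was 0.120 by edgeR, and DESeq2 called the gene. Gml2 had 16, 6.25 and 41 against 1, 0 and 0 expected counts and was below the filter for edgeR, while DESeq2 called it. In both, DSS 3 was highest and DSS 2 lowest of the DSS group, as for Ly6m.

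Plaur acts with a set of proteases, inhibitors and adhesion receptors, the uPA system. Of 13 tested genes of this list, 10 had a log2 fold change below 0 (median -0.79), edgeR called 0, 7 were lower with an unadjusted p-value under 0.05 (9.12% of all tested genes) and DESeq2 called 3 (2.01% of all genes). The groups did not overlap for 8 lower genes and 1 higher gene, against 11.3% and 6.37% of all tested genes. The higher one was the ligand itself, urokinase (Plau), at 24.9, 29.8 and 29.9 CPM in the DSS mice and 30.8, 34.4 and 32.4 CPM in the DSS+BV mice (log2 fold change 0.20, SE 0.14, adjusted p = 0.586, edgeR). The other plasminogen activator, Plat, was at 27.7, 20.6 and 91.8 CPM against 10.4, 10.4 and 8.98 CPM (log2 fold change -2.23, SE 0.57, adjusted p = 0.283 by edgeR and 0.00478 by DESeq2).

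Of the inhibitors, Serpine2 was at 25.6, 88.3 and 50.02 CPM against 11.9, 13.0 and 18.7 CPM (log2 fold change -1.91, adjusted p = 0.246 by edgeR and 0.00381 by DESeq2). DSS 2 was its highest library, whereas the highest for Plaur was DSS 3. For the integrin genes whose products pair with uPAR, the log2 fold changes were -1.31 for Itgam, -1.11 for Itgb3, -0.77 for Itgb2 and -0.71 for Itgav (adjusted p between 0.165 and 0.585, edgeR). Itgb3 was the gene of this list with the smallest edgeR p-value, at 49.1 ± 7.24 CPM against 22.7 ± 4.42 CPM (SD, n = 3 each), and DESeq2 called it. The clearance receptor gene Lrp1 (-0.21), the collagen receptor gene Mrc2 (-0.79) and the plasminogen receptor gene Plgrkt (0.52) had adjusted p-values of 0.712, 0.226 and 0.419 by edgeR. Fibroblasts are a source of several of these products. All 11 tested genes of the fibroblast list had a log2 fold change below 0 (median -0.84, 0 called by edgeR, 3 called by DESeq2 and 8 with an unadjusted p-value under 0.05, against the same 2.01% and 9.12% of all genes), and the list summed to 4314 to 4547 CPM in the DSS libraries and 1624 to 2402 CPM in the DSS+BV libraries. Their part in these values was not tested.

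**Figure D4:**
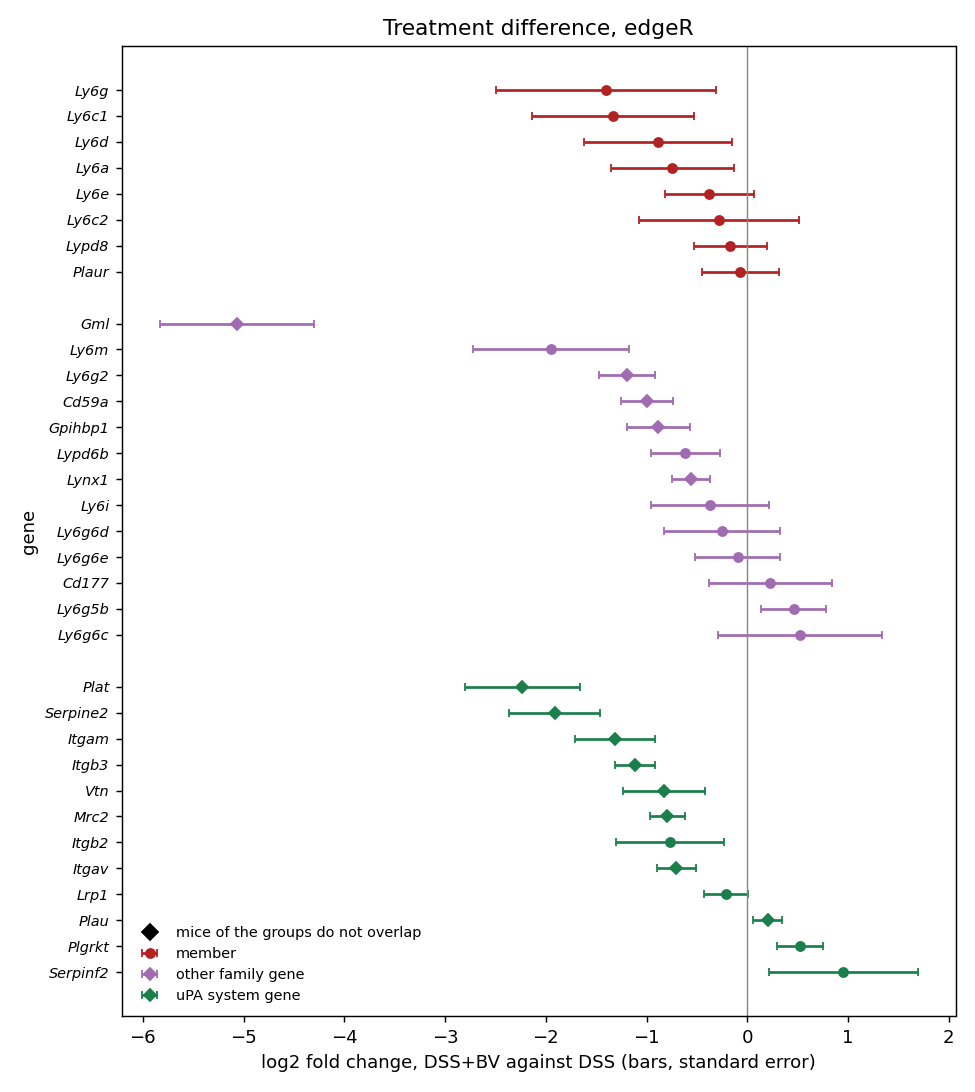
Log2 fold change of DSS+BV against DSS from edgeR for the 8 genes, the other tested family genes and 12 of the 13 tested genes of the uPA system, with bars of 1 standard error and diamonds where no mouse of one group lies within the range of the other. The 8 genes are all circles with changes between -1.40 and -0.07; the point of Gml is a fitted value from 2 or 3 counts in each DSS+BV library.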

How the data were processed

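Colon RNA from 3 DSS and 3 DSS+BV mice was sequenced on a DNBSEQ-T7 instrument, and groups and replicate numbers came from the sample labels. The authors deposited RSEM expected counts per gene, unscaled. The submitters' processing notes list HISAT2 2.1.0, Bowtie2 2.2.5, RSEM 1.2.8 and the build GRCm38.p6.

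Expected counts were rounded, filtered with filterByExpr (minimum count 10, minimum total 15), scaled by TMM and tested with edgeR 4.0.16 (quasi-likelihood) in R 4.3.3, p-values being adjusted by Benjamini-Hochberg for 14579 genes, after a run on simulated data. The DESeq2 alternative was version 1.42.0. Replicates were separate mice. Pearson's r used log2 CPM (prior count 2), and a list's level is the mean of its centred genes.

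The 8 genes and the 17 gene lists (234 entries) were chosen with earlier results of these data known, the distal colon list among them. Named genes are the 8, listed family and uPA system genes that were called or had a mean of at least 10 CPM, the 3 most similar genes with a mean of at least 5 CPM, the most abundant gene of a list, S100a8 and Epcam, with exceptions marked. Values of 2 genes that the rule names are not reported here. Transcript windows came from GENCODE transcripts. Sequences were read with Biopython 1.88 and figures drawn with matplotlib 3.10.9 in Python 3.11.15. Alternatives were other scalings, filters, a robust fit, a replicate block, each library left out and, added after seeing the data, DSS 2 and DSS+BV 3 left out together.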

Additional observations from a re-analysis of the deposited data

How the results depend on the processing

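The count of 0 called genes among the 8 was the same under all alternatives run, which included DESeq2, 2 other scalings, 2 other filters, a robust fit, the adjusted p-value alone, the replicate block, each library left out and DSS 2 with DSS+BV 3 left out. Over all tested genes, DESeq2 called 280 lower and 45 higher genes where edgeR called 13 and 0, and it called 3 other family genes (Ly6g2, Gml and Gml2) and 3 uPA system genes (Plat, Serpine2 and Itgb3) where edgeR called 0. Leaving out 1 library gave 0 to 3 lower and 0 to 4 higher genes, and leaving out DSS 2 and DSS+BV 3 gave 0 lower genes. Deviations of same-numbered libraries correlated at 0.267, 0.255 and -0.296, and those of differently numbered libraries at between -0.572 and 0.484. With 3 libraries in each group, these values cannot decide whether the replicate numbers pair the mice. With the replicate block, 0 genes were lower, and the log2 fold change of Plaur was 0.051. Leaving out 1 library gave log2 fold changes of -1.50 to 0.48 for Ly6c2, -0.43 to 0.21 for Lypd8, -0.32 to 0.46 for Plaur, -2.00 to -0.65 for Ly6g, -1.82 to -0.92 for Ly6c1, -1.17 to -0.39 for Ly6a, -2.08 to -0.37 for Ly6d and -0.88 to -0.13 for Ly6e. The likeness to lists moved beyond its approximate standard error in 18 of the alternatives, and in 0 of them turned sign beyond it. The cause of these shifts was not tested. Exact permutation of 3 against 3 mice cannot go below p = 0.1, and the low counts of Ly6c2 and Ly6d limit their precision.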
